A study of Homo sapiens with 6 samples.

Results

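The HOX genes of the HOXA, HOXB, HOXC and HOXD clusters were followed in MDA-MB-231 cells depleted of Sam68. Members were the loci of the deposited expression table whose symbol is that of a clustered HOX gene, of a numbered antisense RNA of a HOX cluster, or of the noncoding RNAs HOTAIR, HOTTIP and HOTAIRM1. This gave 45 of 74852 loci, of which 34 were coding and 11 noncoding, with 13 in HOXA, 12 in HOXB, 11 in HOXC and 9 in HOXD. HOXA3 and HOXD1 were not analysed here. A locus can join several genes, and HOXA9 with HOXA10, and HOXC4 with HOXC5 and HOXC6, were each counted as 1 locus.

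MDA-MB-231 is an established human line of triple-negative breast cancer (TNBC). Cells received a non-targeting control siRNA pool (si-CTRL, 3 libraries) or 4 pooled siRNAs that target SAM68 (si-SAM68, 3 libraries), in 2 rounds of transfection, and the sample labels give a harvest 24 h after the second round. The methods of the paper count the harvest time from transfection without naming rounds, so whether it is the same time cannot be told. They give another culture medium and RNA kit. All libraries come from 1 cell line with a transient knockdown. The methods give a harvest in triplicate without saying whether the replicates were transfected as separate cultures, so that p-values measure the spread between these libraries, which may be technical. Values are normalized read counts, which are the reads on a locus divided by the size factor of the library. Libraries held between 52625492 and 82568487 counted reads, and an rRNA locus took 15.1% of them in si-SAM68 replicate 2 against 1.83% to 3.17% in the others. KHDRBS1, the gene encoding Sam68, fell from 14960 ± 620 (SD, n = 3) in si-CTRL to 618 ± 45.8 (SD, n = 3) after knockdown, so that 4.13% remained. The 8 markers expected in these cells (VIM, CD44, AXL, CAV1, MSN, KRT8, KRT18 and EGFR) had at least 3138 normalized reads in every library. Of 9 markers expected to be near 0, ESR1, PGR, CDH1, EPCAM, PTPRC and PECAM1 reached at most 16.2, whereas GATA3 (331 to 542), FOXA1 (786 to 1393) and COL1A1 (at least 138281) were present, against the expectation. The identity of the line is taken from the labels and was not tested.

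HOX genes encode homeodomain transcription factors that assign position along the body axis in the embryo. Genes at the group 1 end of a cluster are expressed first and most anteriorly, and those at the group 13 end later and more posteriorly. Genes with the same number in different clusters are paralogs, and adult cells and cancer cells keep a pattern of HOX expression that differs between tissues. HOX proteins bind DNA together with the TALE cofactors PBX and MEIS, and the clusters are kept silent or active by Polycomb and MLL complexes.

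The sequences of the SAM68 siRNAs are shown because they define the treatment. They are the sense strands, 5′ to 3′, from the supplementary oligonucleotide list, and the capitals mark the bases that pair with positions 2 to 8 of the guide, the seed.
siSAM68_1: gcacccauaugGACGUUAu
siSAM68_2: gaaagagcgagUGCUGAUa
siSAM68_3: uaugauggaugAUAUCUGu
siSAM68_4: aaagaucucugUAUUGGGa
All 19 bases of each siRNA matched KHDRBS1 transcripts of GENCODE (GRCh38). The longest run of any of them in a HOX transcript was 11 bases, in HOXB13 on the sense strand and in HOXA13 on the antisense strand. A 7-base seed match on the sense strand anywhere in a transcript was found for 7 of 39 genes of the tested HOX loci (17.9%), which were HOTAIR, HOXA-AS2, HOXB2, HOXB4, HOXB8, HOXD4 and HOXD13, and for 56.3% of the 15133 genes of all tested loci that had a transcript. For the siRNAs of the control pool, such a match was found for 30 of the 39 HOX genes (76.9%) and for 76.0% of the genes of all tested loci. A match is a description of letters and not of a site.

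Coding HOX genes are alike in the sequence of the homeodomain, also where they are not paralogs. The codons of the most conserved part of the homeodomain are shown for 3 coding genes of different clusters described below in the comparison. They were read from GENCODE transcripts (GRCh38). Capitals mark 18 bases for the run tryptophan, phenylalanine, glutamine, asparagine, arginine, arginine of the DNA recognition helix.
HOXA2: aaagtgTGGTTTCAGAACCGGAGGatgaag
HOXB7: aagattTGGTTTCAGAACCGGCGCatgaag
HOXD13: accattTGGTTTCAGAACCGAAGAgtgaag
The run was found in a transcript of 37 of 37 coding HOX genes, in 29 different spellings that differed from each other at up to 7 of the 18 bases. The longest stretch of identical bases shared by coding members of different clusters was 62 bases, between HOXB3 and HOXD3. This is shorter than the read length given in the methods of the paper. Of the 45 loci, 29 overlapped another locus of the table on either strand. Whether strand was used in counting is not given in the sources used here, so that reads of a HOX gene and of an antisense RNA across it cannot be told apart.

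MDA-MB-231 cells expressed genes of all 4 clusters, and HOXB was the most abundant. In si-CTRL cells the summed normalized read count of the coding loci was 18968 ± 1127 (SD, n = 3) for HOXB, or 66.1% of the total of coding HOX loci. HOXC followed with 6135 ± 487 (21.4%), HOXA with 2495 ± 232 (8.70%) and HOXD with 1087 ± 9.54 (3.79%). Levels of different genes were compared per kilobase of exon (GENCODE), which gave a value for single-gene loci only. By this measure HOXB7 had the highest level, 2583 ± 48.0 normalized reads per kb (SD, n = 3), followed by HOXB2 (1711 ± 237). HOXB9 (936 ± 113) and HOXC10 (888 ± 76.4) did not differ beyond their spread. HOXB4 came next (714 ± 32.5), ahead of HOXB3 (433 ± 53.4) and HOXB13 (396 ± 45.3), whose spreads overlapped. This order depends on the exon length used, which was merged over all transcripts of a gene. Before division by length, HOXB3 (7.456 kb) had more normalized reads than HOXB4 (3.757 kb), 3230 ± 398 against 2683 ± 122 (SD, n = 3). HOTAIRM1, a noncoding RNA of the HOXA cluster, was the most abundant noncoding member (346 ± 21.1 per kb), and HOTAIR, a noncoding RNA of the HOXC cluster known to associate with Polycomb complexes, had 130 ± 18.8 per kb. HOXD8 (286 ± 8.59 per kb) stood out in HOXD, where HOXD3 had 8.23 ± 0.211.

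**Figure D1:**
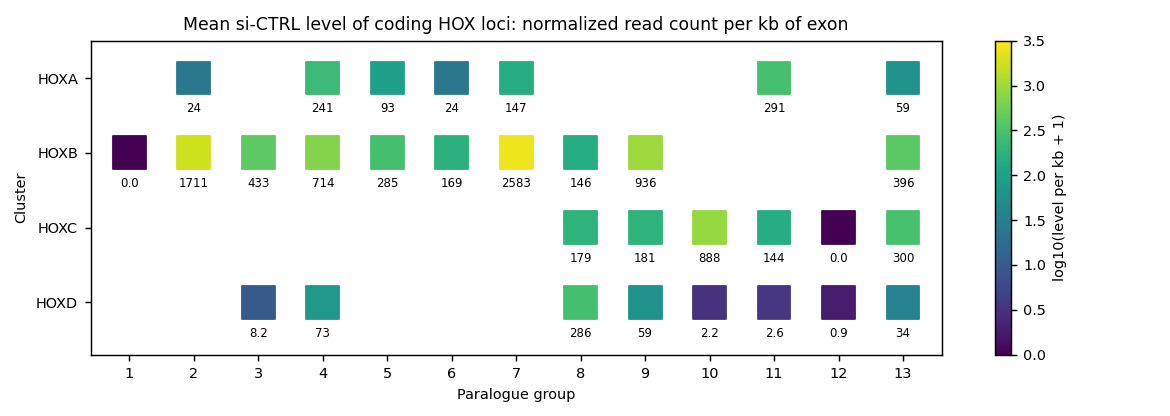
Mean si-CTRL level of each single-gene coding HOX locus, with the paralogue group on the horizontal axis, the cluster on the vertical axis, and the normalized read count per kb of exon (mean of 3 libraries) given by color on a log10 scale and in digits. Empty positions hold no gene, no single-gene locus or a locus not reported here, and the 2 highest squares are HOXB7 (2583) and HOXB2 (1711).

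A locus was tested when its mean over the 6 libraries was at least 10, which 37 of the 45 members reached (28 coding and 9 noncoding). The 8 others were HOXA-AS3, the HOXA9 and HOXA10 locus, HOXB1, HOXC12, HOXC-AS2, HOXD10, HOXD11 and HOXD12, and none of their values exceeded 16.2. HOXB1 and HOXC12 were listed at 0 in 5 of 6 libraries. The HOXA9 and HOXA10 locus had 2.50, 0 and 1.90 normalized reads in si-CTRL replicates 1 to 3 and 4.03, 6.44 and 4.47 in si-SAM68 replicates 1 to 3. Its span in the table (hg19, chromosome 7, 27202057 to 27293875) runs across HOXA11, HOXA13, HOTTIP and EVX1. How the reads of overlapping loci were assigned is not given in the sources used here, so these few reads are no measure of HOXA9 or HOXA10 themselves.

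**Figure D2:**
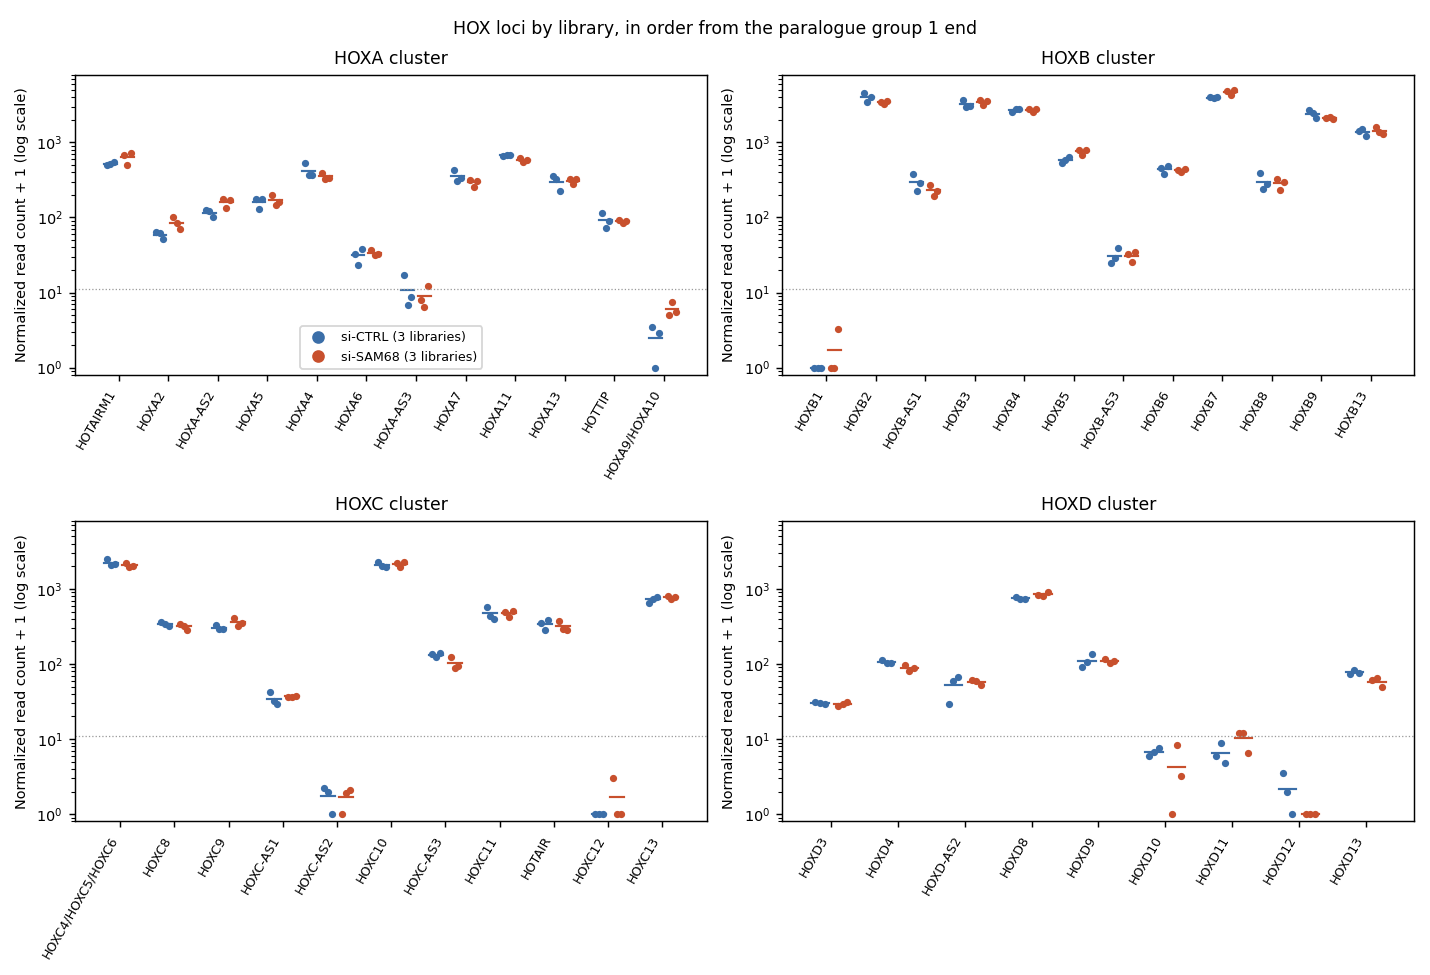
Normalized read count + 1 (log scale) of the HOX loci reported here, with 1 panel per cluster and loci ordered by the midpoint of their span from the group 1 end. Points are libraries (3 si-CTRL and 3 si-SAM68 per locus), short lines are group means, and the dotted line is the minimum mean of 10. Within nearly every locus the groups lie close together compared with the range between loci.

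The comparison of si-SAM68 with si-CTRL cells asked whether depletion of this RNA-binding protein changed the amount of HOX transcripts. Few members passed a test. With the cut-offs used in the paper (unadjusted p-value of at most 0.05 and fold change of at least 1.5), limma called 0 of the 37 tested members, against 7.67% of all 18849 loci tested (2.83% higher and 4.83% lower in si-SAM68). At an adjusted p-value under 0.05 over all loci tested, 1 member passed, against 10.7% of all loci (4.47% higher and 6.23% lower). That count stayed at 1 without si-CTRL replicate 1 and was 0 with any other library left out. At the cut-offs of the paper, edgeR and DESeq2 each gave 0 calls among the members, against 7.95% and 7.08% of all loci. With limma, an unadjusted p-value of at most 0.05 was found for 6 members (16.2%), against 27% of all loci. Among the 6 were HOXA2, HOXA-AS2, HOXB5 and HOXB7, higher in si-SAM68, and HOXC-AS3, lower. The groups did not overlap for 10 members (27.03%), 6 higher and 4 lower, against 33.9% of all loci (16.6% higher and 17.3% lower). In cells measured in bulk, fewer cells with a transcript and less transcript per cell cannot be told apart.

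Differences between the groups were centered near 0. The median log2 fold change over the 37 members was 0.011, beside 0.0050 over all loci tested, and 20 members lay above 0 and 17 below, where 50.9% of all loci lay above 0. The values ranged from -0.43 for HOXD13 to 0.52 for HOXA2. For 21 members the 95% confidence interval of the fold change lay within 1.5-fold in both directions, so that a larger change of these loci was outside the interval. For the other 16 it reached beyond 1.5-fold, and a change of that size was not resolved with 3 libraries per group. By cluster, the median log2 fold change was 0.075 in HOXA (11 tested), -0.0042 in HOXB (11), 0.027 in HOXC (9) and -0.019 in HOXD (6), and with single libraries left out each of these medians took both signs. The summed coding counts of si-SAM68 cells were 2501 ± 144 in HOXA, 19253 ± 1053 in HOXB and 6142 ± 342 in HOXC (SD, n = 3), each within 1 SD of the si-CTRL mean given above. The HOXD sum was 1096, 1077 and 1087 in si-CTRL replicates 1 to 3 and 1132, 1106 and 1202 in si-SAM68 replicates 1 to 3. The difference of 5.53% was without overlap, but a two-sided exact permutation test of 3 against 3 libraries cannot go below p = 0.1. HOXD8 made up most of this sum and was higher in si-SAM68 (mean 852, against 751 in si-CTRL), whereas HOXD4 and HOXD13 were lower.

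**Figure D3:**
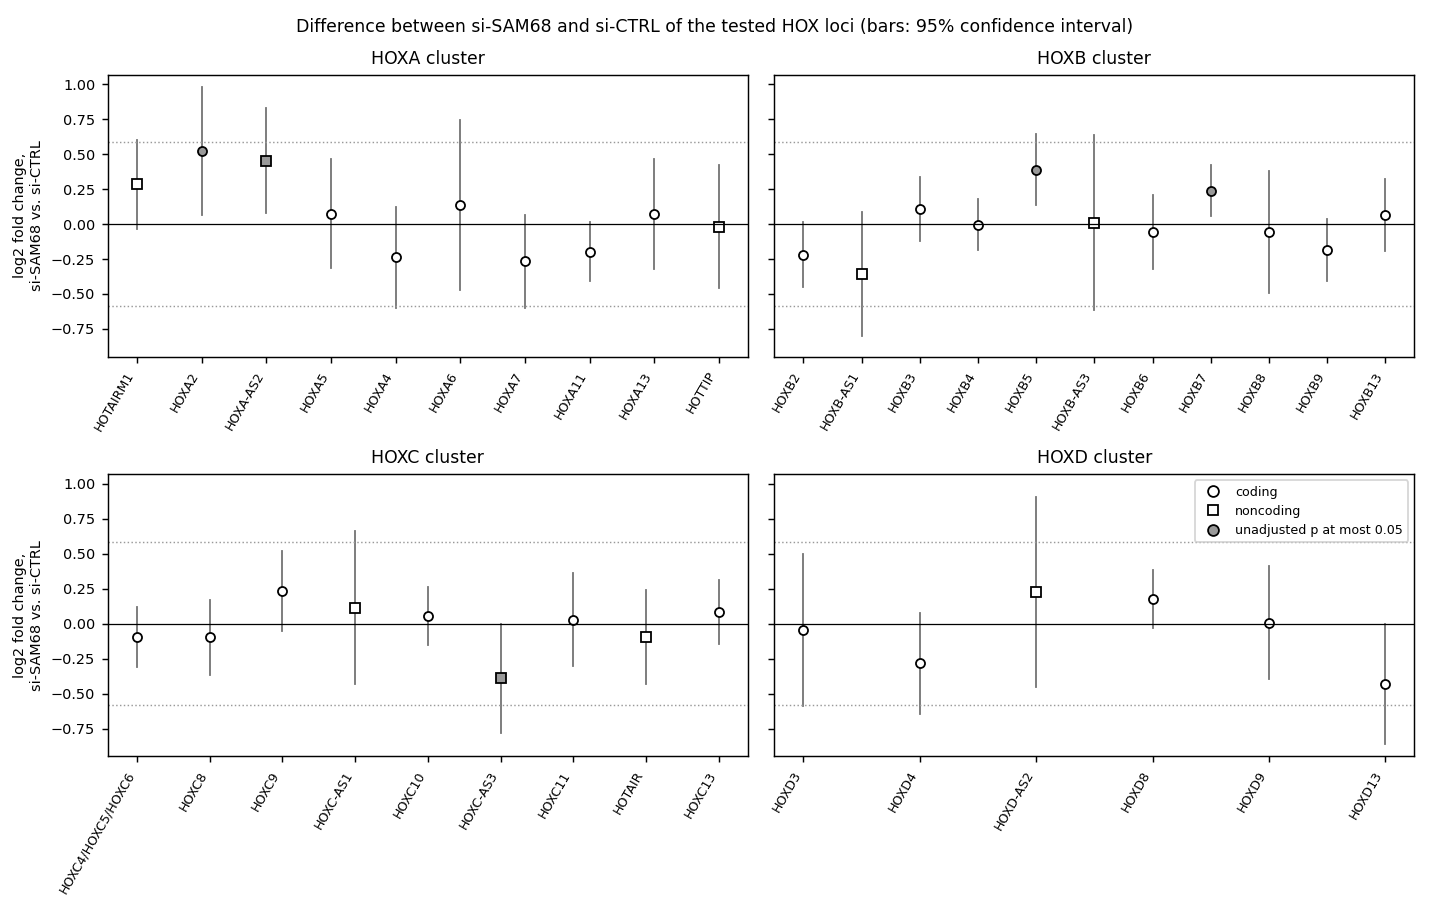
log2 fold change (si-SAM68 vs. si-CTRL, limma) of the tested HOX loci reported here, with 1 panel per cluster and loci in order from the group 1 end. Bars are 95% confidence intervals, circles coding and squares noncoding loci, fill gives the p-value class, and dotted lines mark a 1.5-fold change. The highest symbol is HOXA2 (0.52) and the lowest HOXD13 (-0.43), and none lies beyond a dotted line.

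HOX loci moved together from library to library more than between the groups. Relative to each locus's mean over the 6 libraries, the median log2 deviation of the 37 members was 0.11, -0.092 and -0.021 in si-CTRL replicates 1 to 3 and 0.083, -0.081 and 0.012 in si-SAM68 replicates 1 to 3. The median over all loci tested stayed between -0.0016 and 0.0093. Division by the size factor holds that median near 0, so it is no contrast for a small set of loci. Whether other sets of this size and level moved as much was not tested. Libraries numbered 1 were thus the highest in each group and libraries numbered 2 the lowest. Among the si-CTRL libraries, replicate 1 held the highest value for 22 of the 37 members, replicate 3 for 12 and replicate 2 for 3. The pattern was present in HOXA, HOXB and HOXC, whereas in HOXD the si-CTRL values ran from 0.011 to 0.13 with replicate 3 the highest. Replicate 1 of si-CTRL also had the fewest reads, and replicate 2 of si-SAM68 the largest share of rRNA. The part of either in these values was not tested.

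In the HOXA cluster (chromosome 7), HOXA2, HOXA-AS2 and HOTAIRM1 had higher values in si-SAM68 cells without passing the adjusted test. HOXA2, a hindbrain and branchial arch gene, was at a low level, with 62.5, 61.0 and 50.4 normalized reads in si-CTRL and 99.7, 83.7 and 69.3 in si-SAM68 libraries. The groups did not overlap, and the log2 fold change was 0.52 (standard error 0.204, limma adjusted p = 0.134). Without si-SAM68 replicate 3, its lowest si-SAM68 value, the log2 fold change of HOXA2 was 0.65, and HOXA2 was then called at the cut-offs of the paper. Leaving out si-SAM68 replicate 1 gave 0.39 and leaving out si-CTRL replicate 3 gave 0.43, with limma adjusted p-values of 0.317 and 0.287. The noncoding HOXA-AS2, whose locus overlaps those of HOXA4 and HOXA5, had 125, 119 and 99.8 normalized reads in si-CTRL and 174, 132 and 168 in si-SAM68 libraries (log2 fold change 0.45, standard error 0.168, limma adjusted p = 0.117), again without overlap. HOTAIRM1 had 492, 508 and 553 against 686, 501 and 728, so that si-SAM68 replicate 2 lay among the si-CTRL values (0.28, standard error 0.143, limma adjusted p = 0.234). These 3 loci were set together after their values were seen. Their direction was the same under all 16 alternatives, which refit the same libraries and turned the sign of only 13 of the 37 members.

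Farther along HOXA the values were lower or near 0 in si-SAM68 cells. HOXA11, a gene of limb and uterus development and the HOXA locus with the most reads, had 656, 669 and 685 normalized reads in si-CTRL and 619, 550 and 588 in si-SAM68 libraries. All si-SAM68 values were lower, but the log2 fold change was only -0.20 (standard error 0.095, limma adjusted p = 0.216). HOXA4 (log2 fold change -0.24) and HOXA7 (-0.27) overlapped between the groups, each with its highest value in si-CTRL replicate 1. HOXA5, HOXA6 and HOXA13 were between 0.072 and 0.13. HOTTIP, a noncoding RNA at the group 13 end known to bind WDR5, had 114, 71.7 and 87.5 normalized reads in si-CTRL and 90.7, 84.6 and 89.4 in si-SAM68 libraries. Its groups overlapped (log2 fold change -0.019, 95% confidence interval -0.46 to 0.42).

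The HOXB cluster (chromosome 17) held the most abundant HOX genes. HOXB7, known for promoting growth and invasion of breast cancer cells, had 3989, 3863 and 3990 normalized reads in si-CTRL and 4765, 4245 and 4984 in si-SAM68 libraries. Every si-SAM68 library was higher, yet the difference in log2 was 0.24 (standard error 0.082, limma adjusted p = 0.0937). HOXB5 had 529, 575 and 639 normalized reads in si-CTRL and 802, 679 and 801 in si-SAM68 libraries, also without overlap, with a log2 fold change of 0.39 (standard error 0.113, limma adjusted p = 0.0562). HOXB2 had 4561, 3454 and 3976 normalized reads against 3401, 3251 and 3591, and si-SAM68 replicate 3 lay above the lowest si-CTRL value (log2 fold change -0.22, standard error 0.104, limma adjusted p = 0.210).

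The remaining coding HOXB loci showed smaller differences. HOXB3, HOXB4, HOXB6, HOXB8, HOXB9 and HOXB13 had log2 fold changes from -0.18 for HOXB9 to 0.11 for HOXB3, and the groups overlapped for each. HOXB4 was the closest to 0 (log2 fold change -0.0042), with a 95% confidence interval of -0.19 to 0.18. HOXB13, the gene at the group 13 end known as a regulator of prostate identity, had 1373 ± 157 and 1436 ± 167 normalized reads (SD, n = 3). The noncoding HOXB-AS1, which overlaps HOXB2 and HOXB3, had 376, 225 and 283 normalized reads in si-CTRL and 270, 190 and 223 in si-SAM68 libraries. Its values overlapped between the groups (log2 fold change -0.35, standard error 0.199, limma adjusted p = 0.284, and 0.115 with a replicate block). HOXB-AS3 had 23.7, 28.1 and 38.0 normalized reads in si-CTRL and 31.2, 24.8 and 33.5 in si-SAM68 libraries, and the groups overlapped (log2 fold change 0.011).

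In the HOXC cluster (chromosome 12) no coding locus had an unadjusted p-value of at most 0.05. The HOXC4, HOXC5 and HOXC6 locus had 2501, 2060 and 2115 normalized reads in si-CTRL and 2200, 1986 and 2040 in si-SAM68 libraries (log2 fold change -0.097). HOXC10 had 2273, 1989 and 1945 against 2194, 1985 and 2260 (log2 fold change 0.054, 95% confidence interval -0.15 to 0.26). Both pairs of groups overlapped. HOXC8, HOXC9, HOXC11 and HOXC13 had log2 fold changes between -0.099 for HOXC8 and 0.23 for HOXC9, and each overlapped between the groups.

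The tested noncoding members of HOXC were HOTAIR, HOXC-AS1 and HOXC-AS3. HOTAIR had 354, 285 and 379 normalized reads in si-CTRL and 374, 294 and 285 in si-SAM68 libraries. Its groups overlapped (log2 fold change -0.095, 95% confidence interval -0.43 to 0.24, limma adjusted p = 0.732). HOXC-AS3, which overlaps HOXC10, had 134, 124 and 138 against 124, 86.5 and 93.8, with si-SAM68 replicate 1 just under the lowest si-CTRL library. The log2 fold change of HOXC-AS3 was -0.39 (standard error 0.175, limma adjusted p = 0.184). HOXC-AS1 had 41.2, 31.0 and 28.5 against 35.3, 35.9 and 36.9 (log2 fold change 0.11), and its si-SAM68 values lay within the range of si-CTRL.

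The HOXD cluster (chromosome 2) was the least abundant. HOXD8 had 777, 740 and 737 normalized reads in si-CTRL and 823, 813 and 919 in si-SAM68 libraries, all higher, with a log2 fold change of 0.18 (standard error 0.093, limma adjusted p = 0.248). HOXD9 had 90.0, 107 and 134 against 116, 103 and 109, an overlap of the groups (log2 fold change 0.0078). HOXD13, the limb gene at the group 13 end, had 72.5, 83.3 and 74.2 against 59.4, 63.5 and 48.0. All si-SAM68 values of HOXD13 were lower, with a log2 fold change of -0.43 (standard error 0.192, limma adjusted p = 0.186). HOXD4 was also lower without overlap (log2 fold change -0.28, limma adjusted p = 0.292), and HOXD3 overlapped (-0.046). The noncoding HOXD-AS2 had 28.7, 59.1 and 66.5 normalized reads in si-CTRL and 60.4, 58.9 and 51.4 in si-SAM68 libraries. Its value in si-CTRL replicate 1 stood apart, and without that library its log2 fold change turned from 0.22 to -0.14.

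The cofactors and regulators of HOX genes were taken from 7 lists, of which 75 loci were tested. At an adjusted p-value under 0.05, 6 of them passed (8%), against 10.7% of all loci, and all 6 changed by less than 1.5-fold. The count was 4 with a replicate block. It was 12 without si-CTRL replicate 1, 3 without si-CTRL replicate 3, 2 without si-SAM68 replicate 1, and 1 without either si-SAM68 replicate 2 or 3, while the share of all loci ran from 15.1% to 3.32% over the same settings. The genes named next were partly chosen after their values were seen.

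Among the TALE homeodomain cofactors, 8 of 9 were tested, and the median log2 fold change was -0.16. PBX3 fell, from 2188, 1450 and 1465 normalized reads in si-CTRL to 1062, 1158 and 1160 in si-SAM68 libraries, with a log2 fold change of -0.57 (standard error 0.149, limma adjusted p = 0.0390, and 0.0565 with a replicate block). The highest PBX3 value, in si-CTRL replicate 1, stood apart from the other controls, and with each library left out the log2 fold change of PBX3 ran from -0.67 to -0.37. PBX4 had 104, 119 and 131 against 95.7, 75.4 and 61.4 and was called at the cut-offs of the paper, with a log2 fold change of -0.62 and a limma adjusted p of 0.0791. The most abundant member of the list, PBX2, had 3253 ± 144 and 3314 ± 136 normalized reads (SD, n = 3). MEIS1, MEIS2 and MEIS3 had log2 fold changes of -0.11, -0.22 and -0.35, with limma adjusted p-values of 0.60, 0.187 and 0.0944.

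Polycomb group genes were tested for 11 subunits of PRC2, which methylates H3K27, and 18 of PRC1. In PRC2, MTF2, an accessory subunit, rose by 0.39 in log2 (standard error 0.072, limma adjusted p = 0.00971), with 2463, 2570 and 2500 normalized reads in si-CTRL and 3261, 3270 and 3350 in si-SAM68 libraries. The catalytic subunit EZH2 had 5525 ± 263 and 5284 ± 235 normalized reads (SD, n = 3), a log2 fold change of -0.064. In PRC1, CBX6 rose (log2 fold change 0.48, limma adjusted p = 0.00456), as did PCGF5 (0.33, limma adjusted p = 0.0406, and 0.0683 with a replicate block). The groups did not overlap for either. The locus joining BMI1 with COMMD3 had 1935 ± 143 and 1961 ± 133 normalized reads (SD, n = 3). Of the 6 genes with an adjusted p-value under 0.05, CBX6 stayed under it with every library left out (at most 0.0284), and MTF2 reached 0.0546.

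The other lists held no gene with an adjusted p-value under 0.05. They comprised 12 genes of the MLL and COMPASS complexes (median log2 fold change -0.016), 7 demethylases of H3K27 and H3K4 (0.13), 8 genes of CTCF and cohesin (0.11) and 11 of 14 genes of retinoic acid signalling (0.13). KMT2A, the MLL gene, had 2555, 3131 and 2283 normalized reads in si-CTRL and 2726, 4095 and 3107 in si-SAM68 libraries. Replicate 2 was the highest in each group (log2 fold change 0.31, limma adjusted p = 0.236, and 0.0805 with a replicate block). CYP26A1, which degrades retinoic acid, was called at the cut-offs of the paper at a low level. It had between 15.5 and 19.997 normalized reads in si-CTRL and 6.04, 1.84 and 13.4 in si-SAM68 libraries (log2 fold change -1.53, limma adjusted p = 0.121, and from -2.09 to -0.92 with each library left out). None of the 8 ParaHox and EVX genes reached the minimum for testing.

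**Figure D4:**
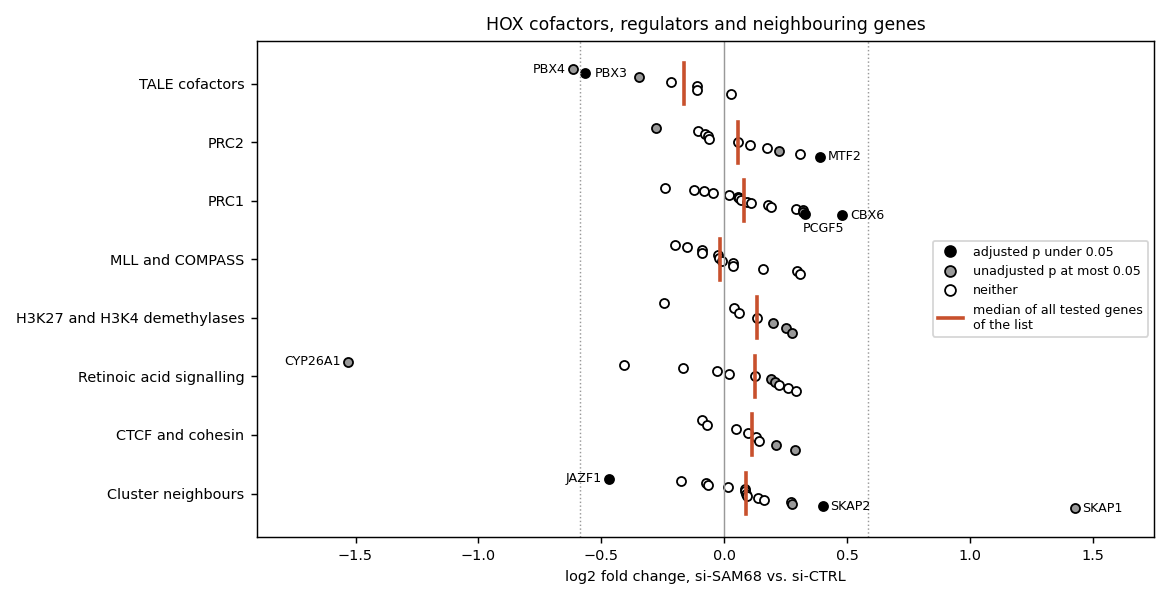
log2 fold change (si-SAM68 vs. si-CTRL, limma) of the tested genes reported here of each list of HOX cofactors and regulators, and of genes next to the clusters. Each point is 1 gene, fill gives the p-value class, orange bars are medians over all tested genes of a list and dotted lines a 1.5-fold change. Most points lie within 1.5-fold, with PBX3 at -0.57 in the cofactor list and CBX6 at 0.48 in PRC1.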

How the data were processed

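RNA-seq of 3 si-CTRL and 3 si-SAM68 libraries of MDA-MB-231 was analysed, grouped by the sample labels. The authors deposited 1 table of a signal, the number of reads on each FAST DB locus (hg19) divided by the DESeq2 size factor of the library. The submitters' processing notes name STAR 2.4.0, SAMtools, Picard, FastQC and DESeq2, and the counting program is not given in the sources used here. All values (100%, within 0.01 read plus 1e-06 of the read count) were whole multiples of a step per library. Reads were thus recovered (52625492 to 82568487 per library), in si-SAM68 replicate 1 at a step of 1.007. The labels name a stranded poly(A) library kit.

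The test was limma 3.58.1 (R 4.3.3; lmFit, then trended eBayes). It was run on log2(normalized read count + 1), which understates the fold change of low loci, for the 18849 loci whose mean was 10 or more, with Benjamini-Hochberg adjustment across them. Alternatives were other pseudocounts, filters and scalings, no trend, a replicate block, edgeR 4.0.16 and DESeq2 1.42.0 on recovered reads, and each library left out. Applying them to the regulator lists was chosen after seeing the data. In simulated data for 18849 loci, limma gave an adjusted p-value under 0.05 to 76 of 100 loci changed 1.5-fold. It did so for 96 of 100 changed 2-fold, with 12 false calls. The simulation used the same fixed dispersion for all loci and no library effects beyond depth. These shares are therefore no measure of the power for the HOX loci.

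Deviations from group means correlated with r = 0.105, 0.231 and 0.125 (across loci) between libraries of the same number and -0.125 to 0.0069 otherwise. The numbers were therefore taken to pair the libraries in the replicate block. The main test and its confidence intervals did not use this pairing. Within groups, counts differed by at least 12.6 times the sampling variance, so that libraries were separate. Per-library values are given for members passing either call rule, the 2 with the most reads in each cluster and each tested noncoding member; other members given in this way were chosen after their values were seen. A few members and regulators are included in counts, sums and medians but are not reported here. Of the regulators, PBX, MEIS, EZH2, BMI1 and KMT2A were named by rule. Members, lists and tests were chosen with earlier results of these data known.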

Additional observations from a re-analysis of the deposited data

How the results depend on the processing

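Few HOX loci were called under any of the 16 alternatives. At the cut-offs of the paper, 1 member was called without a filter (45 loci), the sparse HOXA9 and HOXA10 locus, and 0 to 1 with each library left out (HOXA2 without si-SAM68 replicate 3). Of all loci, 6.71% were called without a filter and 6.90% to 9.71% with each library left out. At an adjusted p-value under 0.05, 2 members passed with a minimum mean of 50, with quantile normalization and with DESeq2 (HOXB5 among them each time), where 14.4%, 10.8% and 14.9% of all loci passed, and 0 to 1 with each library left out, where 3.32% to 15.1% of all loci passed and the HOX count was 1 only without si-CTRL replicate 1. For HOXB5 these adjusted p-values were 0.0453, 0.0423 and 0.0195, and 0.0504 with edgeR. With each library left out, the median log2 fold change ran from -0.063 to 0.17 in HOXA, -0.075 to 0.090 in HOXB, -0.026 to 0.11 in HOXC and -0.13 to 0.048 in HOXD, so that each took both signs, and those of HOXA, HOXB and HOXC moved by less than their spread between replicates (0.14, 0.11 and 0.10 in log2) under every alternative. The replicate block pairs libraries of the same number. With this block, 0 and 1 members passed the 2 rules, against 8.03% and 9.003% of all loci. No member changed its call by either rule. For the regulator lists, the 6 genes with an adjusted p-value under 0.05 became 2 without a filter, 2 without a trend, 11 with DESeq2, and 1 to 12 with each library left out. Over all loci, 4.50%, 4.77%, 14.9% and 3.32% to 15.1% passed in these settings, against 10.7%, so that the share of all loci moved in the same direction. Of 588 values of a member under an alternative, 33 had the opposite sign, in 13 members with a log2 fold change of at most 0.22 in size. The precision is limited by 3 libraries per group, and the 8 members under the minimum could not be compared at this depth.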

Other observations

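Genes next to the HOX clusters and noncoding genes within them that were no members were also measured. Of 15 tested neighbours, 2 (13.3%) had an adjusted p-value under 0.05, beside 10.7% of all loci. SKAP2, a cytoplasmic adaptor on the group 1 side of HOXA, had 1651, 1865 and 1621 normalized reads in si-CTRL and 2162, 2144 and 2488 in si-SAM68 libraries, a log2 fold change of 0.40 (standard error 0.095, limma adjusted p = 0.0264). JAZF1, a zinc finger gene on the group 13 side, fell from 2013, 1833 and 1850 to 1253, 1332 and 1542 (-0.47, standard error 0.098, limma adjusted p = 0.0166). The limma adjusted p of SKAP2 rose to between 0.0634 and 0.117 without si-CTRL replicate 3 or any 1 of the si-SAM68 libraries, and that of JAZF1 to 0.0661 and 0.0750 without replicate 1 or 2 of si-SAM68. SKAP1, near HOXB, was called at the cut-offs of the paper at 13.3 ± 6.21 against 35.03 ± 8.25 normalized reads (SD, n = 3), with a limma adjusted p of 0.0537. All 3 were without overlap between the groups, and they were chosen after their values were seen.

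HOXA11-AS, the antisense RNA of HOXA11, had 186, 123 and 174 normalized reads in si-CTRL and 116, 85.5 and 100.5 in si-SAM68 libraries. It was called at the cut-offs of the paper (log2 fold change -0.66, standard error 0.197, limma adjusted p = 0.0600, and 0.0401 with a replicate block). Of the 11 such noncoding genes in the table, 4 were tested. By limma without the block, 0 had an adjusted p-value under 0.05, against 10.7% of all loci. An unadjusted p-value of at most 0.05 was found for 1, HOXA11-AS, against 27% of all loci. HOXA11-AS was also the only 1 of the 4 called at the cut-offs of the paper, against 7.67% of all loci. HAGLR, in HOXD, had 314 ± 17.8 and 289 ± 34.9 normalized reads (SD, n = 3).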
